A study of Mus musculus with 8 samples.

Results

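The ATF4 amino acid stress response was described here as a set of 36 genes, taken by gene symbol from an expression table of 20462 distinct symbols. The set held 11 regulators, 8 enzymes of amino acid and one-carbon synthesis, 6 amino acid transporters and 11 cytosolic tRNA synthetases. All 36 symbols were found, each in 1 row of the table, and all 36 passed the filter on low values, which kept 11968 of 20793 rows. The data are RNA-seq of mouse brain neural progenitors of mixed FvB/C57BL/6 strain, in 8 libraries of cultured cells infected with lentiviral hairpins and selected with puromycin for 3 days. Proliferating cells were grown in N2 medium with EGF and bFGF at 20 ng/ml each, and differentiating cells spent 5 days in neurobasal medium with B27 supplement. In each state there were 2 non-targeted (NT) libraries, 1 library labelled FUBP1 and 1 labelled CIC. The NT libraries are named TRC and GFP when proliferating and 7 and GFP-D when differentiating, and the others are named FUBP1, CIC, FUBP1-D and CIC-D. Every library carries a hairpin, so there is no uninfected group. The labels do not say how many hairpins were used per gene, what their sequences were or how many animals gave the cultures. Nothing states that the NT libraries of a state came from separate cultures, so the spread that the p-values below measure is one between libraries and may be technical.

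ATF4 is a basic leucine zipper transcription factor whose translation goes up when the initiation factor eIF2alpha is phosphorylated by one of the kinases that sense amino acid shortage, unfolded protein, haem loss or double-stranded RNA. It binds, usually with a C/EBP partner, to C/EBP-ATF response elements (CARE) and switches on genes that make, import and charge amino acids, together with a second layer of regulators such as CHOP (the product of Ddit3), ATF3 and TRIB3. In dividing cells the same program supplies serine, glycine and one-carbon units for growth. Many of its targets, among them the tRNA synthetases and the serine pathway, are also expressed without stress.

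Values are FPKM, fragments scaled to transcript length and to the number of mapped fragments in the library, so they are relative within a library. The sum of FPKM over all rows differed by state. It ran from 505977 (CIC) to 541608 (GFP) in the proliferating libraries. In the differentiating ones it ran from 426984 (FUBP1-D) to 448571 (CIC-D). The number of reads behind each library is unknown. The targeted genes check the labels. Fubp1 stood at 50.2 FPKM in TRC, 12.4 in GFP, 34.8 in FUBP1 and 34.8 in CIC, so the library labelled FUBP1 lay between both controls and the lowest level was in a control. Fubp1 was at 24.8 FPKM in 7, 25.4 in GFP-D, 26.9 in CIC-D and 21.6 in FUBP1-D. The values go against the FUBP1 and GFP labels in the proliferating state, whether libraries were exchanged was not tested, and comparisons that use them below follow the labels. Cic stood at 39.4, 33.8, 49.5 and 13.3 FPKM in the same order, and at 42.0, 35.3, 32.1 and 25.6 FPKM in 7, GFP-D, FUBP1-D and CIC-D. Cic in the library labelled CIC was thus 33.6% of TRC and 39.2% of GFP, and in CIC-D 60.9% of 7 and 72.5% of GFP-D. GFP stood apart from TRC: their correlation over the 11968 rows was 0.914, against 0.980 between TRC and FUBP1. Ddx3y, a gene on the Y chromosome, was at 42.5 FPKM in CIC and 33.0 in CIC-D, and between 3.28 and 14.4 in the other libraries. Whether the cultures differed in the sex of their animals was not tested. Progenitor markers summed to between 3149 and 5433 FPKM in every library, with Vim or Fabp7 the most abundant. In TRC, Vim alone gave 3216 of 4822 FPKM. Astrocyte markers summed to between 364 and 670 FPKM in the proliferating libraries and between 2519 and 5186 in the differentiating ones. For the oligodendrocyte lineage the sums ran from 424 to 1134 FPKM, with Olig1 or Cnp the most abundant. Those of neurons ran from 44.6 in CIC-D to 571 in TRC, where Nefl was at 537. Markers of microglia summed to at most 7.71 FPKM and of endothelium to at most 4.66, while 12 cell cycle genes summed to 1514 FPKM in TRC, 1495 in FUBP1, 670.2 in GFP and 692 in CIC, and to between 70.1 and 135 in the differentiating libraries.

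The CARE core in member promoters is shown first, since it is the element that ATF4 binds. Promoter windows of 300 bases, 250 before and 50 after an annotated start, were taken from RefSeq (GRCm38.p6) and matched 30 of the 36 symbols. Slc7a5, Slc1a5, Wars, Nars, Cars and Mars had none. The core was searched as TGATGNAA on both strands, and a match on the strand opposite to the gene reads as its reverse complement. It was present in 12 of 30 members (40%), against 1219 of 27025 symbols with a promoter window (4.51%) and 2.56% of the 9006 symbols that also had a kept row. The 12 were Atf3, Chac1, Trib3, Asns, Pycr1, Slc7a11, Slc1a4, Aars, Gars, Iars, Tars and Yars. The stretches below run 5′ to 3′ on the strand of the gene, with matches in capitals, and were chosen to give examples of each of the 4 role groups.
Atf3 (GRCm38.p6 chr1:191183406-191183503, minus strand): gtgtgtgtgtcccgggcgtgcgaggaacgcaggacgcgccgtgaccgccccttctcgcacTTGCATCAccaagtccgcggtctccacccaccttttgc
Chac1 (GRCm38.p6 chr2:119350992-119351086, plus strand): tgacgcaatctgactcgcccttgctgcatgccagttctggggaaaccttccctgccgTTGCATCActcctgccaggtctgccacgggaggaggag
Trib3 (GRCm38.p6 chr2:152344028-152344057, minus strand): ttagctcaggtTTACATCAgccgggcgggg
Asns (GRCm38.p6 chr6:7693210-7693292, minus strand): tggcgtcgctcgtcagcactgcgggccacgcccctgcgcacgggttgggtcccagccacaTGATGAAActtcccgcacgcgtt
Slc7a11 (GRCm38.p6 chr3:50443642-50443739, minus strand): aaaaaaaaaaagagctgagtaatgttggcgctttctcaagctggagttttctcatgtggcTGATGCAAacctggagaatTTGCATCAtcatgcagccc
Slc1a4 (GRCm38.p6 chr11:20332699-20332728, minus strand): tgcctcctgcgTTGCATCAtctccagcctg
Aars (GRCm38.p6 chr8:111033670-111033767, plus strand): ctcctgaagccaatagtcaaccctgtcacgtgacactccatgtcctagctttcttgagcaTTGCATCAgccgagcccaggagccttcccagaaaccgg
Gars (GRCm38.p6 chr6:55037911-55038000, plus strand): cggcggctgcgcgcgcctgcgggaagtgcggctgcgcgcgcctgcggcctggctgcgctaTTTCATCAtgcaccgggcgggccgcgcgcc
Tars (GRCm38.p6 chr15:11399659-11399733, minus strand): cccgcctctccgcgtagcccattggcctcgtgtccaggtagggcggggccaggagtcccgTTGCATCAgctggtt
Slc7a11 held the core on both strands within 1 short stretch. Of the cytosolic tRNA synthetases in the set, 5 of 7 with a window held it, against 0 of 8 cytosolic synthetase and scaffold genes outside the set and 0 of 14 mitochondrial synthetases. It was also in 7 of 23 other ATF4-linked genes and in 0 of 16 unfolded protein response genes outside the ATF4 arm. A count of 0 in lists of these sizes lies near the 4.51% of all promoters. The set was put together around ATF4, so its own share is not independent evidence. With only the 250 bases before the start searched, 8 of 30 members held the core (26.7%), against 3.91% of all promoters. A pair of other motifs was searched as a comparison. The E-box CACGTG was in 4 of 30 members (13.3%; 8.09% of all promoters and 12.1% of those with a kept row), and the antioxidant element TGACNNNGC was in 9 of 30 (30%; 14% of all promoters and 17.3% of those with a kept row). Before the start only, the latter was in 5 of 30 (16.7%; 11.5% of all promoters). In no member window did matches of different motifs share bases. A match shows only that these letters are present.

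A pair of patterns ran through the values, and both are visible in the heat map of all members. The library labelled CIC stood above the others for nearly the whole set: it was the highest of the 8 in 33 of 36 members, against 17% of all rows. It lay more than 1 log2 unit above both NT libraries of its state in 25 of 36 members, against 3.63% of all rows, and more than 1 unit below both in 1 (Slc1a5; 5.65% of all rows). The other pattern was with differentiation: 18 of 36 members fell and 0 rose in the additive limma fit (adjusted p under 0.05), against 17.7% of all rows lower and 21.2% higher. The median member change was -1.03 on the log2(FPKM + 1) scale, and that of all rows was 0.09. This fit takes in the library labelled CIC. Between the NT libraries alone, on the same scale, the median member change was -0.66, with 26 negative and 10 positive estimates. The NT median of all rows was 0.08, with 53.9% of the estimates positive. The median member level on that scale was 5.17 in TRC, 5.49 in GFP, 5.13 in FUBP1 and 6.95 in CIC, and 4.57, 4.90, 4.36 and 5.11 in 7, GFP-D, FUBP1-D and CIC-D.

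**Figure D1:**
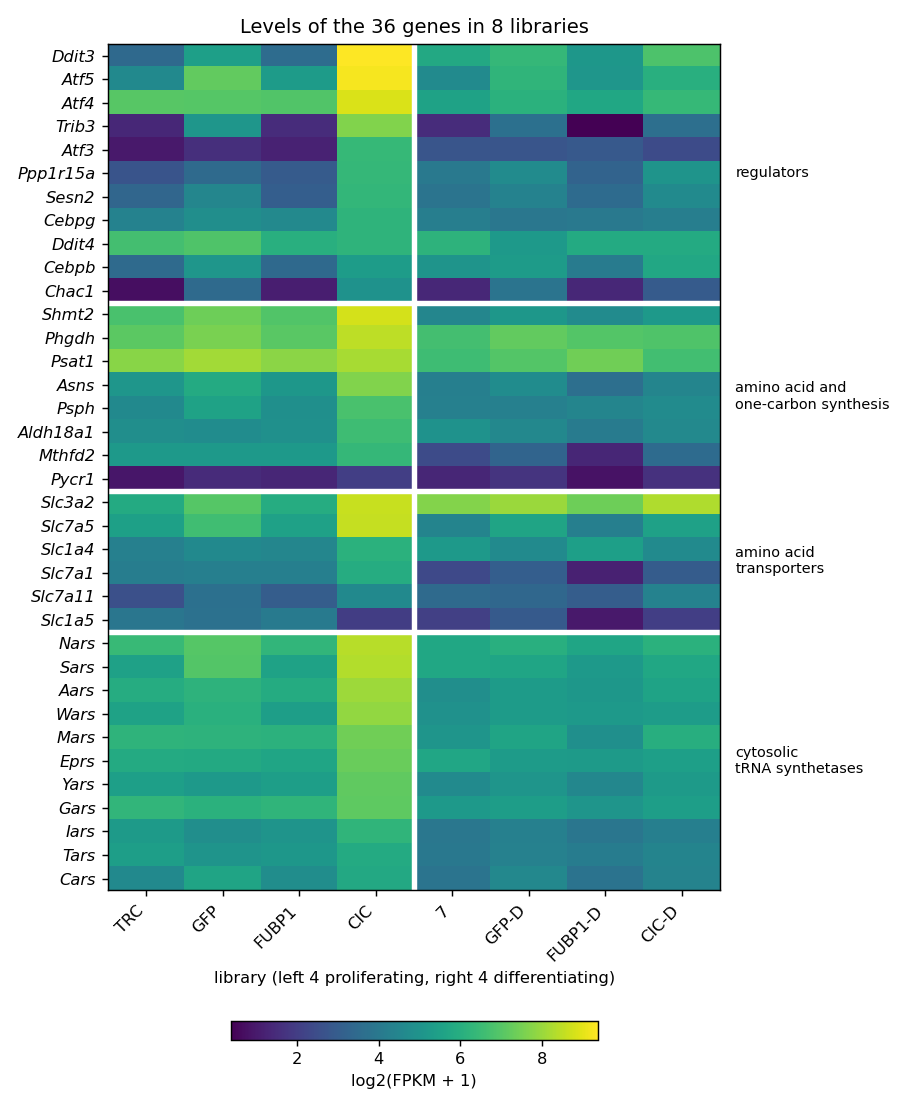
Level of each of the 36 genes (rows, grouped by role and ordered by the CIC value within a role) in the 8 libraries (columns), as log2(FPKM + 1). The CIC column is the brightest in 33 of 36 rows, and most rows of synthesis enzymes and synthetases are darker in the 4 differentiating libraries than in the 4 proliferating ones.

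Among the regulators, the downstream stress factors had the widest range over libraries and Atf4 itself a narrow one outside the library labelled CIC. Atf4 (mm9 chromosome 15, 80085614 to 80087971) stood at 129.5 FPKM in TRC, 125 in GFP, 121 in FUBP1 and 465 in CIC, and 67.8 in GFP-D, 83.9 in CIC-D, 45.5 in 7 and 52.4 in FUBP1-D. TRC, GFP and FUBP1 were within a few FPKM of each other, CIC was 3.59 times TRC and 3.72 times GFP, and all 4 differentiating libraries lay below all 4 proliferating ones. Atf4 fell with differentiation with a log2 change of -1.50 (SE 0.26, limma adjusted p = 0.0051). Atf4 is controlled mostly through translation, which these data do not measure.

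Ddit3, which encodes the pro-apoptotic factor CHOP (mm9 chromosome 10, 126727849 to 126733344), stood at 9.93 FPKM in TRC, 42.2 in GFP, 10.8 in FUBP1 and 659.6 in CIC, and 81.1 in GFP-D, 115 in CIC-D, 54.7 in 7 and 33.9 in FUBP1-D. Its CIC level was 66.4 times TRC and 15.6 times GFP, and every differentiating library lay above TRC and FUBP1. Atf3, a stress-induced repressor of the same protein family (mm9 chromosome 1, 192994176 to 193007212), stood at 0.943 FPKM in TRC, 2.01 in GFP, 1.30 in FUBP1 and 82.2 in CIC, and 5.71 in GFP-D, 4.39 in CIC-D, 5.67 in 7 and 6.33 in FUBP1-D. The differentiating libraries were nearly equal to each other and above TRC, GFP and FUBP1, while CIC was 87.2 times TRC and 40.97 times GFP. Both Atf3 ratios are imprecise, since its TRC and GFP levels were near the floor. By the smaller of the differences from both NT libraries, Atf3 ranked 2nd and Ddit3 9th of the 11968 rows, Ppp1r15a 26th, Trib3 40th and Atf5 81st.

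Atf5, another factor of the family with stress-controlled translation, stood at 24.01 FPKM in TRC, 146 in GFP, 38.8 in FUBP1 and 603 in CIC, and 75.9 in GFP-D, 64.2 in CIC-D, 24.4 in 7 and 33.3 in FUBP1-D. GFP lay 6.07 times above TRC and CIC above both, and the states overlapped. Trib3, a pseudokinase induced by ATF4 and CHOP that feeds back on ATF4, stood at 1.59 FPKM in TRC, 32.9 in GFP, 1.85 in FUBP1 and 202 in CIC, and 11.8 in GFP-D, 11.5 in CIC-D, 1.85 in 7 and 0.283 in FUBP1-D. Chac1, an enzyme that breaks down glutathione, stood at 0.629 FPKM in TRC, 10.03 in GFP, 1.18 in FUBP1 and 29.9 in CIC, and 13.2 in GFP-D, 6.63 in CIC-D, 1.58 in 7 and 1.59 in FUBP1-D. Both genes were low in TRC, FUBP1, 7 and FUBP1-D and higher in the libraries named GFP or CIC of either state, so neither order followed the state. The plot of 12 genes by library shows this shared order.

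**Figure D2:**
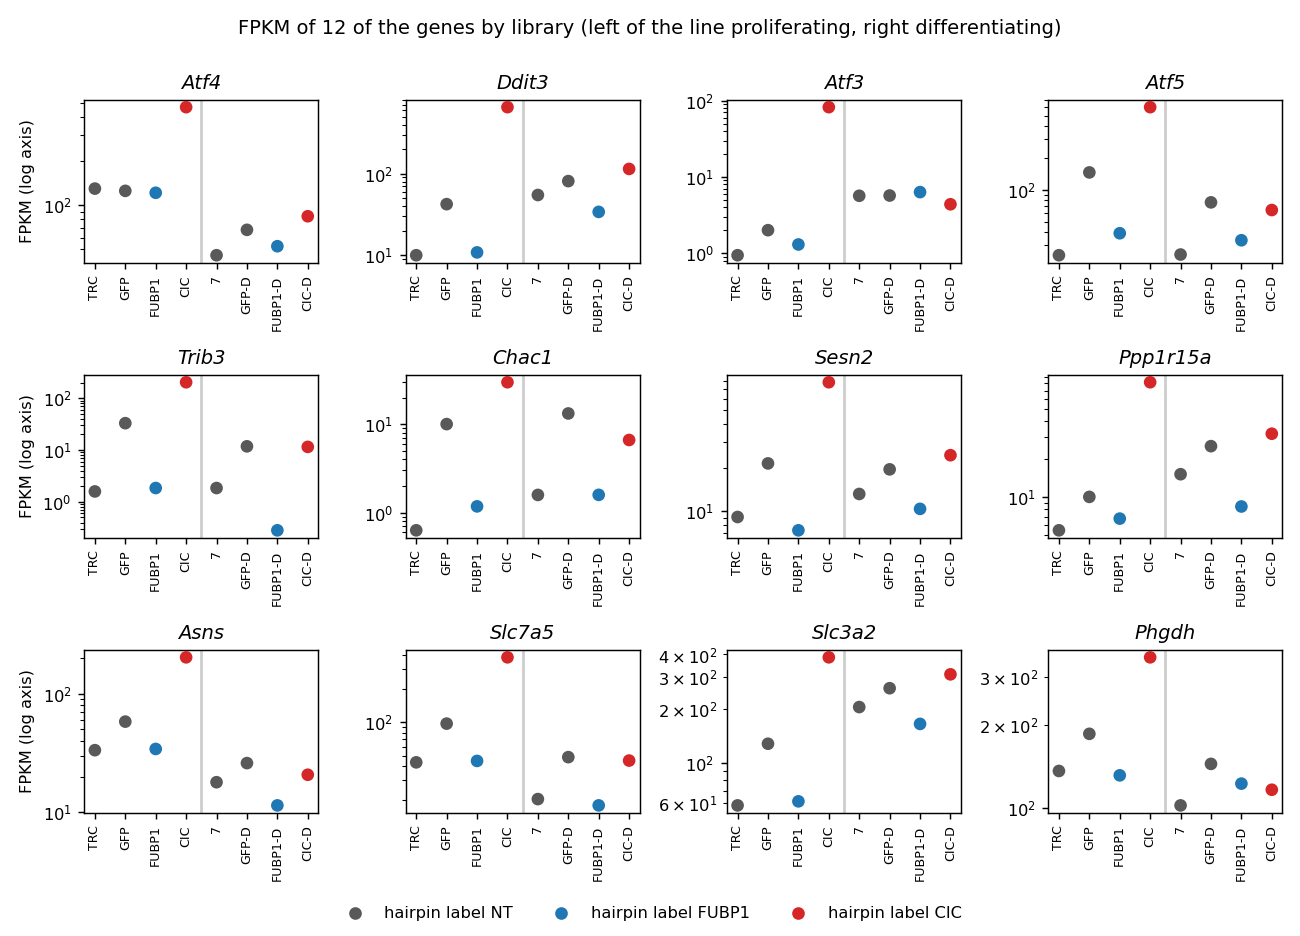
FPKM (log axis, one scale per panel) of 12 of the genes in each library, coloured by hairpin label, with 1 point per library. CIC is the highest point in all 12 panels, and GFP lies above TRC in all panels except Atf4.

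Ppp1r15a, the eIF2alpha phosphatase subunit GADD34 that ends the response, stood at 5.47 FPKM in TRC, 10.1 in GFP, 6.77 in FUBP1 and 81.5 in CIC, and 25.4 in GFP-D, 31.8 in CIC-D, 15.2 in 7 and 8.44 in FUBP1-D. Sesn2, a leucine sensor that restrains mTORC1, stood at 9.09 FPKM in TRC, 21.4 in GFP, 7.35 in FUBP1 and 78.3 in CIC, and 19.5 in GFP-D, 24.4 in CIC-D, 13.1 in 7 and 10.3 in FUBP1-D. In both the CIC library was highest and the states overlapped. The C/EBP partners of ATF4 differed. Cebpg stood at 19.6 FPKM in TRC, 26.96 in GFP, 23.1 in FUBP1 and 73.6 in CIC, and 14.3 in GFP-D, 17.6 in CIC-D, 17.7 in 7 and 15.2 in FUBP1-D, with every differentiating library below every proliferating one, and fell with differentiation with a log2 change of -0.90 (SE 0.29, limma adjusted p = 0.0441). Cebpb was at 10.2 FPKM in TRC and 9.86 in FUBP1 and between 16.2 and 53.5 in the other 6, with its highest level in CIC-D. Ddit4, which encodes the mTORC1 inhibitor REDD1, and Cebpb were the regulators for which CIC was not the highest library. Ddit4 was at 73.2 FPKM in CIC, 101 in TRC and 118 in GFP.

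Among the synthesis enzymes, the mitochondrial folate steps had the largest changes with differentiation and the serine steps smaller ones. Mthfd2, the mitochondrial methylene-tetrahydrofolate dehydrogenase typical of dividing cells (mm9 chromosome 6, 83255698 to 83267598), stood at 36.5 FPKM in TRC, 36.6 in GFP, 35.5 in FUBP1 and 81.7 in CIC, and 8.70 in GFP-D, 10.4 in CIC-D, 4.32 in 7 and 1.53 in FUBP1-D. Shmt2, which makes glycine and one-carbon units from serine in mitochondria (mm9 chromosome 10, 126954179 to 126959500), stood at 109 FPKM in TRC, 167 in GFP, 121 in FUBP1 and 441 in CIC, and 33.6 in GFP-D, 35.5 in CIC-D, 21.4 in 7 and 25.2 in FUBP1-D. For both the states did not overlap: the highest differentiating library was at 10.4 FPKM for Mthfd2 and 35.5 for Shmt2, and the lowest proliferating one at 35.5 and 109. The log2 change was -2.87 (SE 0.31, limma adjusted p = 0.0011) for Mthfd2 and -2.60 (SE 0.30, limma adjusted p = 0.0013) for Shmt2, and both genes fell in all 18 alternative fits.

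The serine pathway runs from Phgdh through Psat1 to Psph. Phgdh, its entry enzyme, stood at 136 FPKM in TRC, 186 in GFP, 132 in FUBP1 and 352 in CIC, and 145 in GFP-D, 117 in CIC-D, 102 in 7 and 123 in FUBP1-D. The states overlapped, and the change of -0.61 was not called (adjusted p = 0.114). Psat1, the aminotransferase of the next step, stood at 218 FPKM in TRC, 279.9 in GFP, 222 in FUBP1 and 291 in CIC, and 122 in GFP-D, 99.2 in CIC-D, 93.5 in 7 and 169.8 in FUBP1-D. Here CIC was only 1.33 times TRC and 1.04 times GFP, and the states did not overlap. Psph, the phosphatase of the last step, stood at 23.9 FPKM in TRC, 45.4 in GFP, 27.8 in FUBP1 and 108 in CIC, and 18.6 in GFP-D, 24.96 in CIC-D, 18.2 in 7 and 21.2 in FUBP1-D. The log2 change with differentiation was -1.08 (SE 0.23, limma adjusted p = 0.0098) for Psat1 and -1.01 (SE 0.32, limma adjusted p = 0.0392) for Psph. The first and last steps of the pathway were thus 2.58 and 4.54 times TRC in the library labelled CIC, and the middle step was the nearest to TRC.

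Asns, asparagine synthetase and a classical ATF4 target (mm9 chromosome 6, 7625171 to 7643182), stood at 33.4 FPKM in TRC, 58.04 in GFP, 34.2 in FUBP1 and 202 in CIC, and 25.98 in GFP-D, 20.7 in CIC-D, 17.9 in 7 and 11.4 in FUBP1-D. CIC was 6.05 times TRC and 3.48 times GFP, and all differentiating libraries were below all proliferating ones, with a log2 change of -1.68 (SE 0.40, limma adjusted p = 0.0155). The enzymes of proline synthesis did not pass the test: Aldh18a1, the first step, was at 95.2 FPKM in CIC and between 16.4 and 29.6 in the other 7, and Pycr1, the last step, was low throughout, at 3.12 FPKM in CIC and between 0.757 and 2.27 in the others.

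The transporters did not share 1 pattern. Slc7a5 and Slc3a2 encode the light and heavy chains of LAT1, which imports leucine and other large neutral amino acids. Slc7a5 stood at 43.6 FPKM in TRC, 97.2 in GFP, 44.9 in FUBP1 and 384 in CIC, and 48.5 in GFP-D, 45.2 in CIC-D, 20.3 in 7 and 17.9 in FUBP1-D. Slc3a2 stood at 57.9 FPKM in TRC, 128 in GFP, 60.96 in FUBP1 and 386 in CIC, and 259.7 in GFP-D, 310.2 in CIC-D, 204 in 7 and 164 in FUBP1-D. Both were highest in CIC, at 8.82 and 6.67 times TRC, but their order across states differed: Slc7a5 fell with a log2 change of -1.60 (SE 0.46, limma adjusted p = 0.029), while Slc3a2 was higher in each differentiating library than in TRC, GFP and FUBP1 and had an estimate of 0.98 (adjusted p = 0.0716). Under quantile normalization, and without CIC or CIC-D, Slc3a2 was called higher. The difference between the changes of both chains was not tested.

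Slc7a1, the carrier of arginine and lysine, stood at 17.1 FPKM in TRC, 18.1 in GFP, 18.03 in FUBP1 and 60.7 in CIC, and 7.33 in GFP-D, 6.85 in CIC-D, 4.14 in 7 and 1.27 in FUBP1-D. All 4 differentiating libraries lay below all proliferating ones, with a log2 change of -2.27 (SE 0.34, limma adjusted p = 0.0031). Slc1a5, the glutamine carrier ASCT2, stood at 13.8 FPKM in TRC, 12.1 in GFP, 15.3 in FUBP1 and 2.99 in CIC, and 6.46 in GFP-D, 3.06 in CIC-D, 3.19 in 7 and 0.979 in FUBP1-D. It was the 1 member that lay more than 1 log2 unit below both NT libraries in CIC, at 0.217 times TRC and 0.246 times GFP, and its log2 change with differentiation was -1.41 (SE 0.46, limma adjusted p = 0.044). Slc7a11, the cystine importer xCT that feeds glutathione synthesis, stood at 4.91 FPKM in TRC, 11.9 in GFP, 7.00 in FUBP1 and 23.8 in CIC, and 9.40 in GFP-D, 19.4 in CIC-D, 10.2 in 7 and 7.02 in FUBP1-D. TRC was lowest and CIC highest, the states overlapped, and the estimate was 0.08 (adjusted p = 0.832). Slc1a4, the related carrier ASCT1, was at 68.7 FPKM in CIC and between 18.6 and 42.5 in the other libraries.

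The 11 cytosolic tRNA synthetases, which charge tRNAs with their amino acids, had changes of similar size with differentiation. Of the 11, 8 fell, against 17.7% of all rows. All 11 estimates were negative and ran only from -1.30 to -0.75, while 54.2% of all rows had a positive estimate. Aars, the alanyl synthetase, stood at 59.8 FPKM in TRC, 72.2 in GFP, 58.3 in FUBP1 and 262 in CIC, and 38.8 in GFP-D, 47.4 in CIC-D, 26.9 in 7 and 34.1 in FUBP1-D. Gars, the glycyl synthetase, stood at 78.00 FPKM in TRC, 68.5 in GFP, 75.6 in FUBP1 and 138 in CIC, and 40.5 in GFP-D, 41.6 in CIC-D, 36.03 in 7 and 31.9 in FUBP1-D. Tars, the threonyl synthetase, stood at 41.4 FPKM in TRC, 31.2 in GFP, 33.8 in FUBP1 and 57.3 in CIC, and 18.9 in GFP-D, 20.2 in CIC-D, 14.6 in 7 and 16.8 in FUBP1-D. In each of these the states did not overlap, and the log2 changes were -1.30 (SE 0.30, limma adjusted p = 0.0136) for Aars, -1.19 (SE 0.18, limma adjusted p = 0.0034) for Gars and -1.14 (SE 0.18, limma adjusted p = 0.0038) for Tars. The CIC excess was unequal among them, from 1.39 times TRC for Tars to 4.39 times for Aars.

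Iars, the isoleucyl synthetase, stood at 37.4 FPKM in TRC, 27.02 in GFP, 31.1 in FUBP1 and 75.2 in CIC, and 18.6 in GFP-D, 18.1 in CIC-D, 14.2 in 7 and 13.9 in FUBP1-D. Mars, the methionyl synthetase, stood at 73.98 FPKM in TRC, 72.00 in GFP, 70.2 in FUBP1 and 171 in CIC, and 47.9 in GFP-D, 63.3 in CIC-D, 32.5 in 7 and 27.5 in FUBP1-D. Nars, the asparaginyl synthetase, stood at 85.1 FPKM in TRC, 126 in GFP, 76.8 in FUBP1 and 340.4 in CIC, and 64.5 in GFP-D, 68.3 in CIC-D, 51.6 in 7 and 49.4 in FUBP1-D. CIC was again highest in all 3, and the states did not overlap. Yars, the tyrosyl synthetase, stood at 42.4 FPKM in TRC, 36.4 in GFP, 41.2 in FUBP1 and 143 in CIC, and 32.03 in GFP-D, 37.3 in CIC-D, 24.2 in 7 and 22.1 in FUBP1-D. Cars, the cysteinyl synthetase, stood at 24.1 FPKM in TRC, 47.7 in GFP, 26.6 in FUBP1 and 54.6 in CIC, and 22.6 in GFP-D, 20.1 in CIC-D, 13.1 in 7 and 12.9 in FUBP1-D. GFP was 1.98 and CIC 2.26 times TRC for Cars, and 0.857 and 3.38 times for Yars. The log2 changes were -1.24 for Iars, -1.12 for Mars, -1.15 for Nars, -0.94 for Yars and -1.07 for Cars, with limma adjusted p-values between 0.0047 and 0.0293. Eprs, Sars and Wars, for glutamate with proline, serine and tryptophan, had estimates of -0.75, -1.02 and -1.04 that missed the threshold, and stood at 158, 323 and 241 FPKM in CIC against 57.6, 45.02 and 45.5 in TRC.

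Most other cytosolic synthetase genes also fell with differentiation, and none passed the fold of 1 log2 unit in CIC. Of 12 such genes outside the set, 9 synthetase genes and 3 scaffolds, 10 fell with differentiation and 0 rose (17.7% and 21.2% of all rows). The largest changes were in the scaffold genes Eef1e1, Aimp1 and Aimp2, at -1.72, -1.40 and -1.28. In the library labelled CIC, 0 of these 12 lay more than 1 log2 unit above both NT libraries, against 7 of the 11 synthetases in the set and 3.63% of all rows, so the 0 is near that share. The median difference from the mean of TRC and GFP was 0.22 for the 12 (from -1.44 to 1.06) and 1.47 for the 11 (from 0.66 to 2.11). Lars, the leucyl synthetase, was the nearest of the 12, at 117 FPKM in CIC, 49.98 in TRC and 62.0 in GFP, and Qars, the glutaminyl synthetase, was the lowest, at 21.6, 54.2 and 67.5 FPKM. For the 17 mitochondrial synthetases the median was -0.28, with 0 above both NT libraries, and 3 of 17 fell with differentiation (Yars2, Ears2 and Iars2), near the shares of all rows. These are values of 1 library and of lists, with no test between them.

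**Figure D3:**
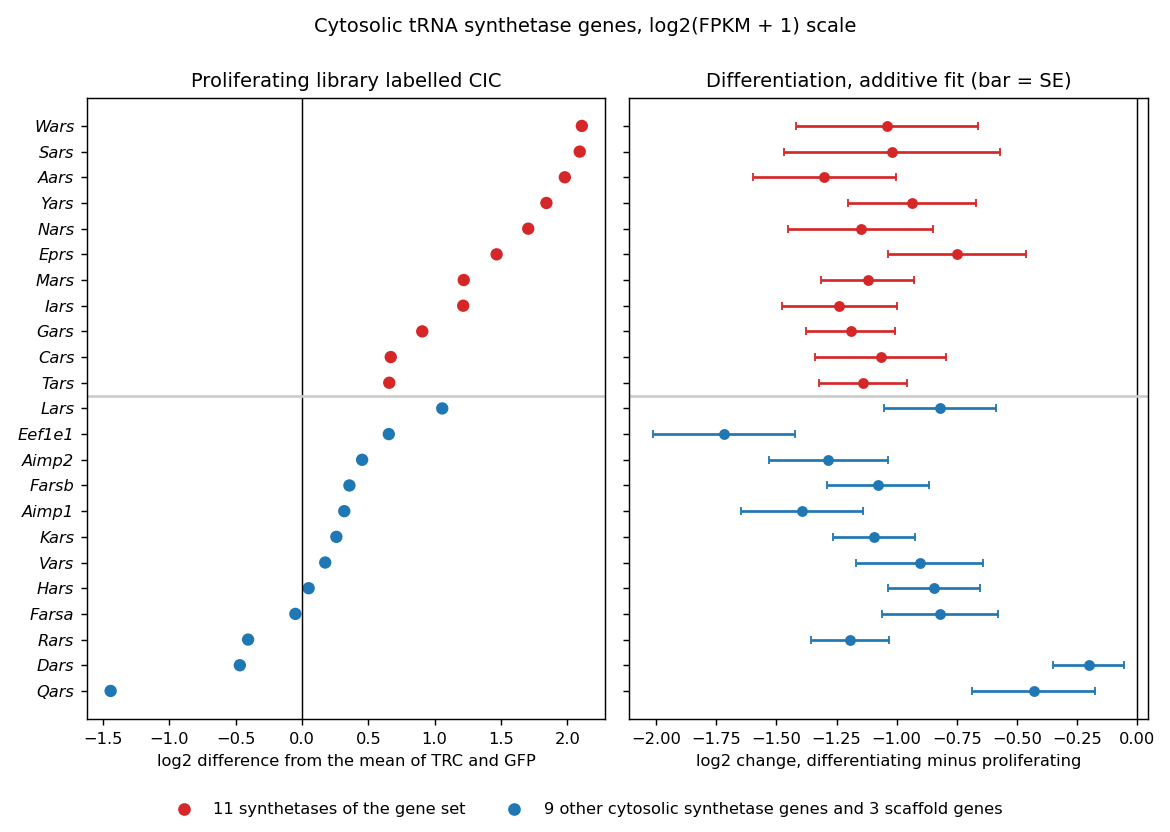
Left, log2(FPKM + 1) in the library labelled CIC minus the mean of TRC and GFP, for the 11 synthetases of the set (red) and 12 other cytosolic synthetase and scaffold genes (blue), 1 point per gene. Right, the log2 change with differentiation and its SE for the same genes: on the left the red points lie between 0.66 and 2.11 and the blue ones between -1.44 and 1.06, and on the right both colours lie below 0.

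Across the set, 13 of the 18 genes that fell with differentiation were enzymes of synthesis or charging. By role, 2 of 11 regulators fell (Atf4 and Cebpg), as did 5 of 8 synthesis enzymes, 3 of 6 transporters and 8 of 11 synthetases. In 15 of 36 members all 4 differentiating libraries lay below all 4 proliferating ones, against 17.8% of all rows. Several regulators that were not called had wide errors: the estimate was -1.61 (SE 0.95, limma adjusted p = 0.208) for Trib3, 0.58 (SE 0.77, limma adjusted p = 0.568) for Ddit3 and 0.16 (SE 0.89, limma adjusted p = 0.896) for Atf3. Without CIC the Atf3 estimate was 1.54 (limma adjusted p = 0.0113) and that of Ddit3 1.62 (adjusted p = 0.0591). Without TRC, Trib3 was called lower, at -2.55 (limma adjusted p = 0.0268). In the same fit all 12 cell cycle genes fell, with a median log2 change of -4.20, and 8 of 12 astrocyte markers rose. The part of these shifts in the members' changes was not tested, and in bulk RNA fewer cells of a type cannot be told apart from less RNA per cell.

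**Figure D4:**
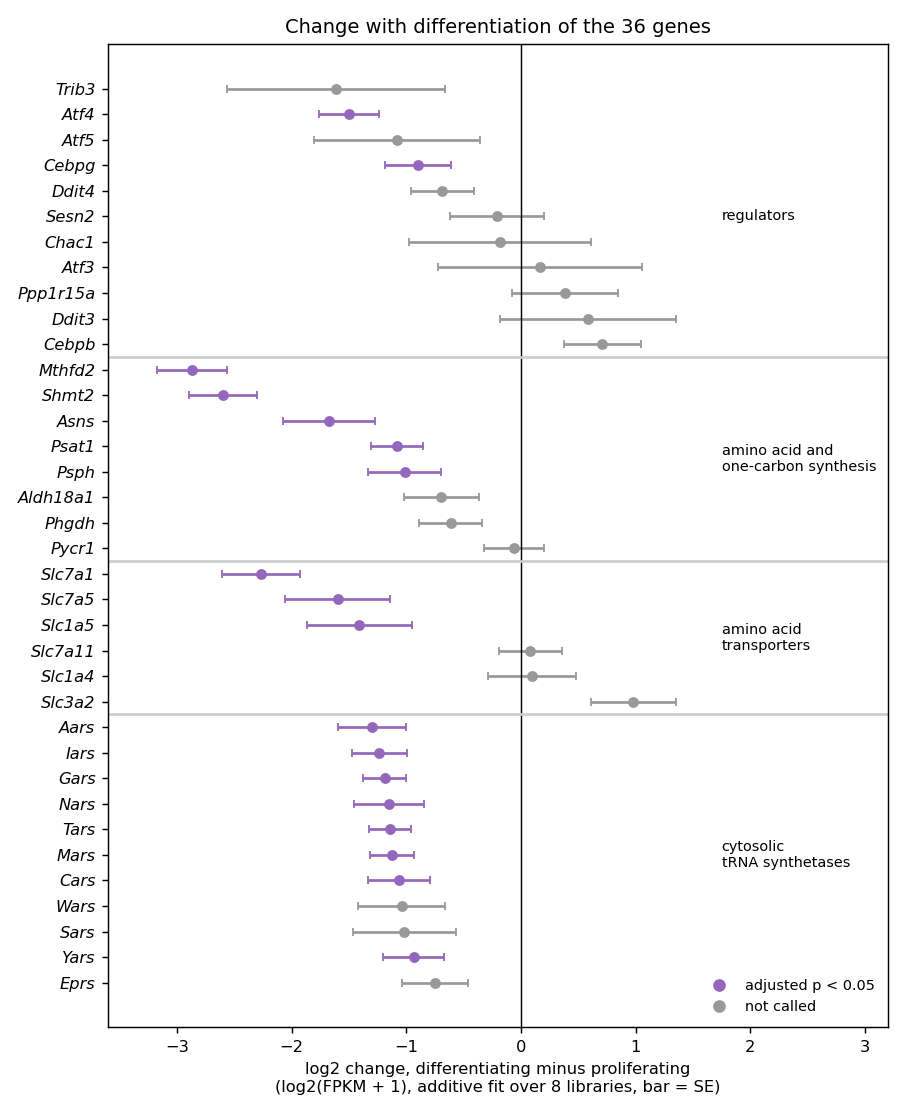
Log2 change of each member, differentiating minus proliferating, from the additive fit over 8 libraries on log2(FPKM + 1); points are estimates, bars are SE and purple marks adjusted p under 0.05. The 18 called genes all lie left of 0, from -2.87 (Mthfd2) to -0.90 (Cebpg), and the bars of Trib3, Chac1, Atf3, Atf5 and Ddit3 are the widest.

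The count depended on the libraries in the fit. It was 11 without the library labelled FUBP1, 11 without FUBP1-D, 12 without 7, 13 without CIC or CIC-D, and 11 without GFP and CIC together, and 9 members were called in all 18 alternative fits: Atf4, Shmt2, Mthfd2, Slc7a1, Aars, Gars, Mars, Iars and Tars. The 18 fits overlap, since a targeted library left without its partner is absorbed by its own label. Leaving out FUBP1 or FUBP1-D thus gave the same estimates, and so did leaving out CIC, CIC-D or both. The other 9 called members lost the call in 1 (Psat1) to 10 (Cebpg and Psph) of the 18 fits. With the library name as a block, Slc1a5 (adjusted p = 0.11) and Yars (0.0627) lost it, and Sars and Trib3 gained it. Without GFP and CIC, the upward count was 4 (Atf3, Cebpb, Ddit3 and Slc3a2). Between the NT libraries alone, 2 against 2 in a fit of 6 group means, 0 members were called lower and 0 higher. Of all rows, 0.886% were called lower and 0.577% higher. An unadjusted limma p under 0.05 was found for 17 members and for 3123 of the 11968 rows. The lowest limma adjusted p of a member was 0.052, for Mthfd2, and quantile normalization brought it to 0.0462. By role, the median NT change was 0.18 for regulators, -0.90 for synthesis enzymes, -0.36 for transporters and -0.87 for synthetases. In the additive fit these medians were -0.21, -1.05, -0.66 and -1.12.

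The comparison of hairpin labels over both states called no member. For the CIC label the additive limma fit called 0 of 36 members at adjusted p under 0.05, against 0.109% of all rows (13 of 11968). An unadjusted limma p under 0.05 was found for 18 members and for 1368 of the 11968 rows. The estimates were positive for 34 of 36 members and for 45.6% of all rows. The member median was 1.02, against -0.04 for all rows, and the lowest limma adjusted p of a member was 0.256 (Mars). Without CIC-D, 1 member was called (Atf3). The difference in the CIC effect between states also called 0 members (0% of all rows). Its member estimates ran from -5.42 (Atf3) to 1.34 (Slc1a5). Their median was -1.45, against 0.05 for all rows. Each state has 1 CIC library, so the CIC level of a single state has no replicate check.

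In the differentiating state the library labelled CIC passed the fold of 1 log2 unit for no member, and few of all rows passed it. Of 36 members, 0 lay more than 1 log2 unit above both NT libraries and 0 below. Both counts are near the shares of all rows (1.07% and 1.76%). The median difference of the 11 regulators from the NT mean was 0.58, against 2.86 in the proliferating state. Ddit3 was at 115 FPKM in CIC-D and 81.1 in GFP-D, and Atf3 at 4.39 and 5.71. Cic itself was lowest in CIC, as given above. In the proliferating CIC library, cell cycle genes summed to 692 FPKM, and in GFP to 670.2. Atf4 was at 125 FPKM and Ddit3 at 42.2 in GFP. Each of these values is from 1 library. Whether the Cic level or the cell cycle bears on the member levels was not tested.

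For the FUBP1 label, 0 of 36 members were called (0% of all rows). An unadjusted limma p under 0.05 was found for 0 members and for 256 of the 11968 rows. The difference between states called 0 members as well (0% of all rows). Against its own NT libraries, TRC and GFP, the library labelled FUBP1 had 0 members more than 1 log2 unit above both and 0 below both. Both counts are near the shares of all rows (0.994% and 0.125%). Its member levels were close to TRC: the differences ran from -0.61 to 0.67 with a median of 0.04. In FUBP1-D, 0 members lay above both NT libraries, near the 1.24% of all rows, and 4 lay below: Trib3, Slc7a1, Mthfd2 and Slc1a5 (0.76% of all rows). These 4 stood at 0.283, 1.27, 1.53 and 0.979 FPKM there. The FUBP1 and CIC comparisons share their NT libraries, and both rest on 1 targeted library per state.

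The NT libraries differed in the stress regulators themselves. They also differed in Fubp1, which in GFP was 24.7% of TRC and goes against the GFP label, as given above. Whether this bears on the members was not tested. GFP lay more than 1 log2 unit above TRC in 10 of 36 members, against 8.87% of all rows, and these were 6 regulators (Ddit3, Chac1, Trib3, Cebpb, Sesn2 and Atf5), 3 transporters (Slc3a2, Slc7a11 and Slc7a5) and 1 synthetase (Sars). No synthesis enzyme was among them. The FPKM ratio of GFP to TRC was 20.7 for Trib3, 15.9 for Chac1 and 4.25 for Ddit3, and 0.965 for Atf4. TRC held Trib3 at 1.59 FPKM and Chac1 at 0.629, near the filter value of 1, so their ratios are imprecise. GFP-D lay more than 1 log2 unit above 7 in 4 members, Chac1, Trib3, Atf5 and Slc7a5 (4.17% of all rows). The 4 genes were among the 10 of the proliferating pair. In GFP the 12 cell cycle genes were all lower than in TRC, 8 of them by more than 1 log2 unit, and the part of this in the difference was not tested.

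In the library labelled CIC, 3.63% of all rows lay more than 1 log2 unit above both NT libraries, so a count of 0 in a list of this size lies near the share of all rows. None of 8 eIF2alpha kinases, phosphatases and nutrient sensors, 5 eIF2B subunits, 19 unfolded protein response genes outside the ATF4 arm, 10 NRF2 targets, 14 folate enzymes outside the set and 11 proline, glutamine and aspartate enzymes passed that fold. The endoplasmic reticulum chaperone Hspa5 (BiP) was at 191 FPKM in CIC, 254 in TRC and 129 in GFP, and the kinase gene Eif2ak3 (PERK) at 10.7, 8.56 and 9.33. Their lists spread more widely. The log2 difference of CIC from the mean of TRC and GFP ran from -2.30 to 1.18 for the unfolded protein response genes (median -0.03). It ran from -0.74 to 1.04 for the eIF2alpha kinases, phosphatases and nutrient sensors (median 0.16). For the 10 NRF2 targets the median was -0.81, with 2 positive, while 5368 of the 11968 rows were positive. Of 27 other ATF4-linked genes, 4 passed the fold (Stc2, Lonp1, Vldlr and Cth), and of 11 other amino acid transporters 1 did (Slc38a3). Lonp1, a mitochondrial protease, was at 218 FPKM in CIC, 58.7 in TRC and 104.9 in GFP. For the 27 genes the median difference of CIC was 1.26 from TRC and 0.10 from GFP, since GFP itself was more than 1 log2 unit above TRC in 15 of them.

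The counts of the neighbouring lists with differentiation are to be read against 17.7% of all rows lower and 21.2% higher, and several lie near these shares. Of the eIF2 genes, Eif2s1, the alpha subunit of eIF2, fell (-1.54) and Impact, an inhibitor of the kinase GCN2, rose (1.26), and the other 6 of 8 were not called. Of 5 eIF2B subunits, which recharge eIF2, 3 fell: Eif2b1 (-0.85), Eif2b5 (-0.75) and Eif2b4 (-0.48). Of the 27 other ATF4-linked genes, 4 rose and 7 fell, with the largest changes in Ndrg1 (2.30), Mthfd1l (-1.96) and Cebpa (-1.86). Folate enzymes fell in 5 of 14 and rose in 0, among them Shmt1 (-2.21) and Ahcy (-1.83). Unfolded protein response genes fell in 5 of 19 and rose in 0, led by Sdf2l1 (-1.46), Sec61b (-1.08) and Hyou1 (-0.80).

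Other transporters rose in 4 of 11 and fell in 1, led by the leucine carrier Slc43a2 (2.097) and the astrocyte glutamate transporters Slc1a3 (1.97) and Slc1a2 (1.94). Proline, glutamine and aspartate enzymes rose in 3 of 11 and fell in 1, with Oat (1.09) and Glud1 (0.85) up and Got2 (-1.13) down. NRF2 targets rose in 2 of 10, near the 21.2% of all rows, and these were Osgin1 (2.50) and Gclc (0.75). All adjusted p-values of the genes named here lay between 0.0015 and 0.0424 (limma).

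Members with and without the CARE core had similar median values. The median difference of CIC from the mean of TRC and GFP was 1.75 for the 12 members with the core and 1.71 for the 18 with a window and no core, and the median log2 change with differentiation was -1.04 and -0.82. Atf3, with the core, had the largest CIC difference (5.11) and Ddit3, without it in this window, the next (4.93). A window of this size cannot hold elements that lie farther from the start.

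Several members share bases with a neighbouring gene, and whether the counting used strand is not given in the sources used here. Ddit3 and Mars overlap by 68 bases, Atf5 overlaps Nup62 by 239, and Aars overlaps Exosc6 by 532, so reads there could be assigned to either gene. Atf5 also shares 289 bases with the read-through gene Nup62-il4i1. Nup62 was at 44.8 FPKM in CIC, 53.2 in TRC and 41.9 in GFP, Nup62-il4i1 at 4.72, 1.07 and 2.62, and Exosc6 at 16.5, 25.4 and 15.5. The part of shared reads in the members' values was not tested.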

How the data were processed

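Per the submitters' processing notes, reads were demultiplexed with bcl2fastq 2.17, trimmed with cutadapt and aligned to mm9 with TopHat2 2.0.11, and the authors deposited 1 FPKM value per gene and library from Cufflinks 2.1.1. FPKM removes the depth, so no counts were available for a count test, read depth is unknown and no counting interval is given. Multi-copy and overlapping genes may share fragments.

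Values were taken as log2(FPKM + 1), and rows with at least 1 FPKM in at least 2 libraries were kept. limma 3.58.1 in R 4.3.3 was fitted to all 11968 kept rows, with a mean-variance trend and Benjamini-Hochberg adjustment over all of them (threshold 0.05). The additive fit held state and hairpin label over 8 libraries (4 residual degrees of freedom); tests within a state and of differences between states used 6 group means (2 residual degrees of freedom). The additive fit was tested on simulated data of 11968 genes for the differentiation comparison: it recovered 26 of 50 genes changed by 1 log2 unit and 42 of 50 changed by 2. It made 14 false calls. The simulated noise was independent and normal, and far fewer genes were changed than the 2114 lower and 2533 higher rows called in the data. Recovery in the data can therefore differ from these values.

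The 36 members, the neighbouring gene lists and the markers were chosen with earlier results of these data known, so a list's direction is not independent evidence. All 36 members were eligible to be named, with values in every library for each member that passed a test and for Atf4, Ddit3, Atf5, Atf3, Asns, Trib3, Chac1, Slc7a11, Phgdh and Psat1, plus up to 3 called genes of largest change per neighbouring list. A gene that this rule names is not reported here. Others named (Lars, Qars, Hspa5, Eif2ak3, Ddx3y and the genes of small counts) were chosen after their values were seen. Alternatives were the pseudocount, the filter, the scaling, the trend, the model, each library left out, the library name as a block and the promoter window. Leaving out both CIC libraries, or GFP and CIC, was chosen after seeing the data. Row positions are mm9 and promoters GRCm38.p6, and the builds were not mixed.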

Additional observations from a re-analysis of the deposited data

How the results depend on the processing

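Of 123 alternative values of the counts of called members, 112 stayed within 1.5 times of the reported count. Most of these set a reported count of 0 against another 0. Several comparisons called 0 of all rows, so their counts had little room to move, and the 112 does not measure stability. Leaving out either library of a targeted label gave the same differentiation estimates, so those fits are not separate. Members lower with differentiation (18) ranged from 11 to 18 when 1 library was left out, at 11 without FUBP1 or without FUBP1-D, and were 11 without GFP and CIC. Members higher (0) ranged from 0 to 2 with 1 library left out: 1 without GFP (Cebpb) and 2 without CIC or CIC-D (Atf3 and Slc3a2). They were 1 under quantile normalization (Slc3a2), 2 without both libraries labelled CIC and 4 without GFP and CIC. Members lower between the NT libraries (0) became 1 under quantile normalization (Mthfd2). Members called with the CIC label (0) ranged from 0 to 1, with Atf3 without CIC-D. The cause of these shifts was not tested.

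Of the 25 members followed one by one, 6 reversed sign somewhere, and none of the 6 was called in the reported fit. Ddit3 was -0.0066 with the library name as a block and ranged from -0.025 (without TRC) to 1.62 with 1 library left out. Atf5 was 0.38 and Trib3 0.20 without GFP and CIC. Atf3 was -0.23 with a pseudocount of 5, -0.013 under quantile normalization, -0.27 with 6 group means, -0.37 with the block, and from -0.34 to 1.54 with 1 library left out, negative in 5 such fits. Chac1 ranged from -0.88 to 0.43 with 1 library left out, positive in 4 such fits, and was 0.43 without both libraries labelled CIC and 1.19 without GFP and CIC. Slc7a11 was -0.045 under quantile normalization, -0.20 with the block and from -0.19 (without TRC) to 0.26 with 1 library left out. With the block on library names the count of lower members was again 18, but Slc1a5 and Yars lost their calls and Sars and Trib3 gained them. The labels give no replicate numbers shared across groups, so that block rests on the library names alone.

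With 1 targeted library per state, few residual degrees of freedom (4 in the additive fit and 2 in the group-mean fit) and an unknown depth, the precision of the label comparisons is limited.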
